A study of Mus musculus with 31 samples.

Results

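The genes described here lie on mouse chromosome 15 around Brd1, the gene that was deleted on 1 allele in the mutant mice. They are the protein-coding genes of the GENCODE M21 annotation (GRCm38) whose start lies from 83.7 to 93.7 Mb, without Brd1 itself and without Hdac10. In all, 86 such genes were in the table of 52636 genes, 36 on the centromere side of Brd1 and 50 on the telomere side. None overlapped Brd1, which occupies chr15:88687034-88734233 on the reverse strand. The rule uses position alone and no expression value. One further gene that meets the rule, the readthrough gene Gm44502, was not analysed here.

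Expression was measured by RNA sequencing of the caudate putamen (CPu), the dorsal striatum, punched from the frozen brains of female mice of 8 to 11 weeks. WT and Brd1+/- littermates of the strain C57BL/6NTac-Brd1 were given saline vehicle or IMN (the antidepressant imipramine) at 10 mg/kg, in groups of 8 WT vehicle, 7 Brd1+/- vehicle, 8 WT IMN and 8 Brd1+/- IMN mice. According to the paper, each mouse was injected before a tail suspension test, and again the next day before open field and forced swim tests. Brains were collected 1 hour after the forced swim. The mutant line is heterozygous for a targeted deletion made with loxP sites around exons 3 to 5 of Brd1, and the deletion is not limited to a cell type. Each mouse was 1 library.

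BRD1 is a scaffold of histone acetyltransferase complexes, which place acetyl groups on histone H3 and so mark active genes. A deletion can alter neighbouring genes in cis, for instance through lost regulatory elements, and genes near a targeted locus also travel with it through breeding. For both reasons the neighbours of a targeted gene are commonly examined by their distance from it. The region holds genes of neuronal signaling, such as the p38 kinases Mapk11 and Mapk12, the scaffold Shank3 and the kinase Lrrk2, among genes of general housekeeping.

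The WT vehicle libraries stood apart from the rest. The score of 10 cortical excitatory neuron markers, their mean log2(TPM + 1), was 4.87 ± 2.16 (SD, n = 8) in WT vehicle mice, 3.02 ± 0.645 (SD, n = 7) in Brd1+/- vehicle mice, 3.01 ± 1.46 (SD, n = 8) in WT IMN mice and 2.93 ± 1.09 (SD, n = 8) in Brd1+/- IMN mice. WT vehicle mice 1 to 5 and 7 scored above every Brd1+/- vehicle mouse, while WT vehicle mice 6 and 8 had low scores, of 1.40 and 1.48. The summed level of the 10 markers ran from 111.6 to 2328 TPM in WT vehicle mice and from 118.7 to 327 TPM in Brd1+/- vehicle mice, and all 10 had the higher mean in the WT mice. Striatal projection neuron markers went the other way. All 10 had the lower mean in WT vehicle mice, with sums from 286 to 10406 TPM against 8457 to 9809 TPM in Brd1+/- vehicle mice. Of the other lists, all 6 astrocyte and all 6 oligodendrocyte genes had the higher mean in WT vehicle mice, and all 6 microglia genes the lower one. There 1 of 6 endothelium and 4 of 6 choroid plexus and ependyma genes had the higher mean in the WT mice. All 5 erythrocyte genes had the lower mean in WT mice under both treatments, with scores of 4.72 in WT IMN and 5.24 in Brd1+/- IMN mice. Under IMN 8 of 10 cortical excitatory and 4 of 10 striatal projection neuron genes had the higher mean in WT mice. So did 0 of 6 oligodendrocyte, 4 of 6 astrocyte, 5 of 6 microglia, 4 of 6 endothelium and 0 of 6 choroid plexus and ependyma genes. In WT vehicle mouse 2 the defining marker Drd1 was at 1.37 TPM and Drd2 at 0.748 TPM. WT vehicle mouse 7, labelled female like the others, had 26.8 TPM of 4 Y-linked genes, against at most 0.188 TPM in any other mouse. Of the 8 highest cortical scores among the 31 mice, 6 belonged to WT vehicle and 2 to WT IMN mice (5 and 8). None of the 86 genes is on a marker list. The part of these differences in the results below was not tested beyond the fits that hold the scores. In such bulk samples, fewer cells of a type and less RNA per cell cannot be told apart.

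Brd1 itself was lower in the mutant mice under both treatments. Its mean was 22.5 ± 2.97 TPM (SD, n = 8) in WT vehicle mice and 13.4 ± 2.02 TPM (SD, n = 7) in Brd1+/- vehicle mice, 59.4% of the WT level (exact permutation test, two-sided, p = 0.000311, the smallest p this design can give). Under IMN the means were 19.9 ± 2.67 TPM (SD, n = 8) and 12.8 ± 1.04 TPM (SD, n = 8), or 64.0% (exact permutation test, two-sided, p = 0.000155, again the smallest possible). The values of the genotypes did not overlap in either treatment.

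The nearest neighbours of Brd1 did not pass the test at p under 0.01 in either treatment. A gap of at most 0.2 Mb separates 6 members from Brd1, and 1 of them, Zdhhc25, of the palmitoyltransferase family, was listed at 0 TPM in every mouse. Zbed4, a zinc finger gene and the closest at 17.4 kb (chr15:88751660-88784516), had 1.47 to 2.31 TPM (median 1.73) in WT vehicle mice and 1.43 to 1.90 TPM (median 1.71) in Brd1+/- vehicle mice. These ranges overlapped, as did those of 1.29 to 1.92 TPM (median 1.64) in WT IMN mice and 1.18 to 1.69 TPM (median 1.49) in Brd1+/- IMN mice. Its log2 fold change on the log2(TPM + 1) scale was −0.045 ± 0.081 (SE, adjusted p = 0.739) under vehicle and −0.095 ± 0.077 (SE, adjusted p = 0.998) under IMN (limma, adjusted over all genes tested). Alg12, a mannosyltransferase of the endoplasmic reticulum at 71.0 kb (chr15:88805244-88819318), had 7.06 to 10.4 TPM (median 8.11) in WT vehicle mice and 5.85 to 8.00 TPM (median 6.81) in Brd1+/- vehicle mice. WT vehicle mice 1, 2, 5 and 7 lay above every mutant, and the log2 fold change was −0.26 ± 0.097 (SE, adjusted p = 0.0932) under vehicle and −0.071 (adjusted p = 0.998) under IMN. Creld2, an endoplasmic reticulum protein induced by stress (chr15:88819646-88826683), had 16.4 to 21.5 TPM (median 19.5) in WT vehicle mice and 14.1 to 24.8 TPM (median 15.03) in Brd1+/- vehicle mice, with no WT mouse above the highest mutant. Its log2 fold change was −0.20 (adjusted p = 0.241) under vehicle and, from 12.5 to 18.5 TPM (median 15.4) in WT IMN mice and 10.6 to 16.9 TPM (median 13.4) in Brd1+/- IMN mice, −0.18 (adjusted p = 0.998) under IMN. Pim3, a serine/threonine kinase at 128 kb, had log2 fold changes of −0.46 (adjusted p = 0.0928) and 0.050 (adjusted p = 0.998). Ttll8, a tubulin glycylase at 156 kb with a mean of 0.465 ± 0.294 TPM (SD, n = 8) in WT vehicle mice, had −0.31 (adjusted p = 0.106) and −0.031 (adjusted p = 0.998). Beside Brd1 itself, with log2 fold changes of −0.71 under vehicle and −0.60 under IMN, the immediate neighbours had changes no lower than −0.46 under vehicle and −0.18 under IMN.

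The sequences upstream of these neighbours are shown because they are the promoters closest to the deleted gene. They come from RefSeq (GRCm38.p6), which matched 72 of the 86 genes with 94 promoters of 300 bases, from 250 bases before to 50 after each start. Printed are bases before the annotated GENCODE start, read on the strand of the gene, and in 1 stretch also the first 4 bases of the gene. Capitals mark 4 motifs, each searched on both strands: the GC box GGGCGG, the box CCAAT, the cAMP response element TGACGTCA and the TATA box TATAAA. The bases before Zbed4 (chr15:88751461-88751659, forward strand) held 3 GC boxes and 74.9% G or C.
Zbed4: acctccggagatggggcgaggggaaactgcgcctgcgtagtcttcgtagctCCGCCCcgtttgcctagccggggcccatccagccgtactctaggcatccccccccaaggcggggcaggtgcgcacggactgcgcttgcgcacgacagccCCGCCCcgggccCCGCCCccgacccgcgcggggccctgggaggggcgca
Alg12 and Creld2 point away from each other with 327 bases between their starts. The 250 of these bases nearest to Creld2 (chr15:88819396-88819645, forward strand) held 3 GC boxes and 3 CCAAT boxes.
Creld2: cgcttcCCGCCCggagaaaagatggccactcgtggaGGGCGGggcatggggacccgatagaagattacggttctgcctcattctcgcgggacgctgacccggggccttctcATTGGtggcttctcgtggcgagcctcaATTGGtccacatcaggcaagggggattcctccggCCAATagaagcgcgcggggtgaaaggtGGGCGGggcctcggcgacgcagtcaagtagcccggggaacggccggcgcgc
GC boxes were in 61.7% of the members' promoters and in 35.7% of all 32851 promoters of the same length, CCAAT boxes in 38.3% and 37.4%, and TATA boxes in 8.51% and 13.6%. TGACGTCA was in 3.19% and 1.79%. The 32851 promoters belong to 27025 genes, and no share was taken for protein-coding genes alone, which all members are. These shares only describe the letters.

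Under vehicle, 20 of the 73 members that passed the filter on low TPM were called at p under 0.01, 18 of them lower and 2 higher in Brd1+/- mice. Among all genes tested 13.6% were called and among all protein-coding genes 17.3%. No member passed an FDR of 5% (limma), where no gene of the whole table did, and 43 members had an unadjusted p under 0.05 (58.9%, beside 30.9% of all and 37.4% of protein-coding genes). Lower calls alone made up 12.1% of all genes and 15.7% of protein-coding genes. The median log2 fold change of the members was −0.28, beside −0.13 over all genes and −0.17 over protein-coding genes. Of the 73 members, 62 were lower (84.9%), beside 72.8% of all genes and 75.3% of protein-coding genes. After median-of-ratios scaling, which brought the median of all genes near 0, 10 members were called, 7 lower and 3 higher, where 9.22% of all genes were called. Of these 10, 9 were among the 20, the median of all members was −0.11 and 51 of the 73 were lower. The lower members called were Yaf2, Prickle1, Mapk12, Sult4a1, Gramd4, Cerk, Sco2, Mapk8ip2, Efcab6, Mapk11, Rabl2, 5031439G07Rik, Panx2, Pnpla3, Pdzrn4, Atxn10, Kif21a and Pkdrej, and the higher ones were CN725425 and Lrrk2. In 17 of the 18 lower members, WT vehicle mice 1 to 5 and 7 all lay above every mutant, and in 16 of the 18 neither mouse 6 nor mouse 8 did.

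**Figure D1:**
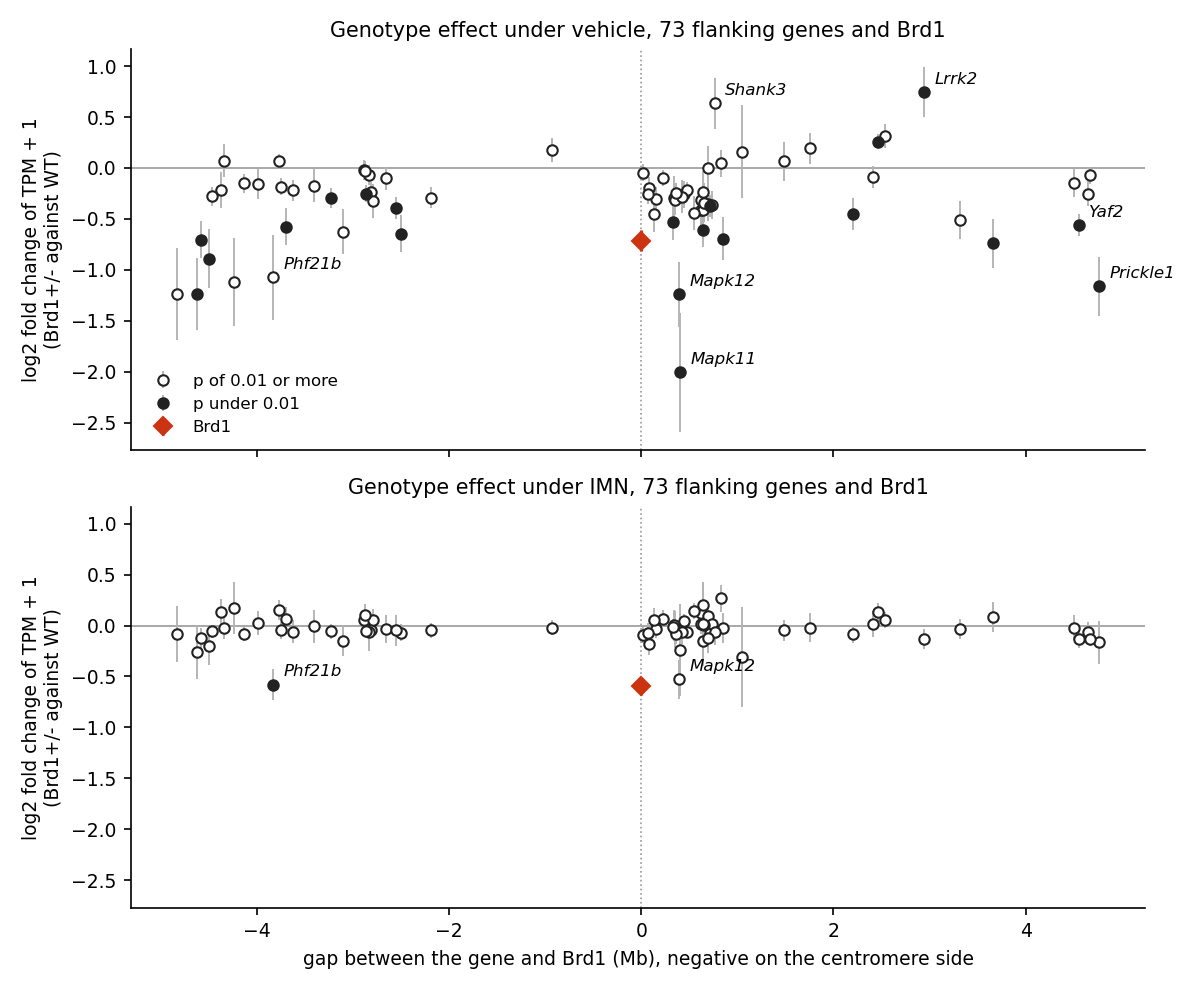
Log2 fold change of TPM + 1 (Brd1+/- against WT, with SE bars) of 73 genes and of Brd1 against the gap to Brd1 in Mb, negative on the centromere side, under vehicle above and IMN below. Filled points have p under 0.01 (limma), 20 under vehicle and 1 under IMN, and none of them lies within 0.2 Mb of Brd1.

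The call depended on single mice. Without 1 mouse the count ran from 12 to 34, and it was 34 without WT vehicle mouse 8, 31 without WT vehicle mouse 6, 13 without WT vehicle mouse 4 or 7, and 12 without WT vehicle mouse 5 or Brd1+/- vehicle mouse 1 or 4. The share of all genes called moved too, from 8.89% to 22.4% over the 15 fits, and it was 22.4% without WT vehicle mouse 8, 19.9% without mouse 6 and 8.89% without mouse 5. Without WT vehicle mice 2 and 7 together, chosen after seeing the data for their markers, 7 members were called, where 5.83% of all genes were, and all 7 (Cerk, Gramd4, Mapk12, Pdzrn4, Prickle1, Sult4a1 and Yaf2) were among the 20. Of the 20, 11 were called whichever single mouse was left out, namely Sult4a1, Efcab6, Mapk12, Mapk8ip2, Yaf2, Cerk, Gramd4, Prickle1, Mapk11, CN725425 and Sco2. Among these, Mapk8ip2, Gramd4 and Sco2 were not called with median-of-ratios or quantile scaling. Sco2 was also not called with mouse number as a block or with all 4 groups in one fit. At an FDR of 5%, where none of the 73 passed, 31 passed without WT vehicle mouse 6 (19.9% of all genes) and 38 without WT vehicle mouse 8 (23.8% of all genes).

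Of 8 genes of kinase and phosphatase signaling, all tested, 4 fell and 1 rose under vehicle, with a list median of −0.45. Each list's calls and median stand beside the 17.3% called, 15.7% lower, and the median of −0.17 of all protein-coding genes. Mapk11 and Mapk12, which encode the p38 mitogen-activated protein kinases beta and gamma, are neighbours on the reverse strand, with Mapk12 next to Hdac10. Mapk12 (396 kb from Brd1, chr15:89130584-89140703) had 1.07 to 8.80 TPM (median 5.86) in WT vehicle mice and 0.754 to 1.85 TPM (median 1.32) in Brd1+/- vehicle mice. The WT values fell into high ones in mice 1 to 5 and 7, all above every mutant, and low ones in mice 6 and 8, inside the mutants' range. The log2 fold change was −1.24 ± 0.32 (SE, adjusted p = 0.0556). Mapk11 (408 kb, chr15:89142486-89149628) had 2.49 to 60.6 TPM (median 36.9) in WT vehicle mice and 2.37 to 6.49 TPM (median 5.12) in Brd1+/- vehicle mice, with the same 6 WT mice high and the same 2 inside the mutants' range. Its log2 fold change of −2.01 ± 0.58 (SE, adjusted p = 0.0559) was the largest of any member on the log2(TPM + 1) scale. Cerk, the ceramide kinase (2.50 Mb), had 14.2 to 41.5 TPM (median 25.9) in WT vehicle mice and 13.5 to 16.5 TPM (median 15.9) in Brd1+/- vehicle mice, a log2 fold change of −0.64 ± 0.18 (SE, adjusted p = 0.0556). Mapk8ip2, the JNK scaffold JIP2 (719.7 kb), had 59.4 to 101 TPM (median 84.5) in WT vehicle mice and 57.7 to 65.5 TPM (median 61.1) in Brd1+/- vehicle mice, a change of −0.37 ± 0.11 (SE, adjusted p = 0.0556). In both genes WT vehicle mice 6 and 8 were again not above the mutants. Lrrk2, a large kinase abundant in striatal projection neurons (2.94 Mb, chr15:91673175-91816120), went up in the mutant group. It had 16.2 to 77.3 TPM (median 40.7) in WT vehicle mice and 62.7 to 74.4 TPM (median 71.9) in Brd1+/- vehicle mice, with WT mice 1 to 5 and 7 below every mutant, and a log2 fold change of 0.74 ± 0.24 (SE, adjusted p = 0.0677). That call was kept in 4 of the 15 fits with 1 mouse left out. The other 3 on the list were not called, with values of −0.44 (adjusted p = 0.0981) for the pseudophosphatase Sbf1, −0.22 (adjusted p = 0.0896) for Ppp6r2, a regulatory subunit of protein phosphatase 6, and −0.46 (adjusted p = 0.0928) for Pim3.

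The bases before Mapk12 are shown because this gene was the lowest in p of all members over both treatments. They lie between Mapk12 and Mapk11 (chr15:89140704-89140953, reverse strand) and held 1 GC box and none of the other 3 motifs.
Mapk12: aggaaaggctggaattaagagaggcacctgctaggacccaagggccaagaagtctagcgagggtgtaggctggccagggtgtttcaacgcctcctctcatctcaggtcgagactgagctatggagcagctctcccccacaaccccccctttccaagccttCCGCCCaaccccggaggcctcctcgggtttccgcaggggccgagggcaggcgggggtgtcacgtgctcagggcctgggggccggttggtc
The palindromic element TGACGTCA was found in the promoters of 3 members, Lmf2, Ncaph2 and Pnpla3. Lmf2, a lipase maturation factor, and Ncaph2, a subunit of condensin II, share theirs, as they point apart with 59 bases between their starts. The stretch is shown with the first 4 bases of Ncaph2, because the element lies across its start (chr15:89355660-89355722, forward strand).
Lmf2 and Ncaph2: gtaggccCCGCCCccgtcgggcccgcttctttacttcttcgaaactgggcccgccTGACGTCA
The pair had log2 fold changes of −0.41 and −0.31 under vehicle and of 0.12 and 0.018 under IMN, none of them called. The other 2 divergent pairs tested were Alg12 and Creld2, at −0.26 and −0.20 under vehicle, and Zcrb1 and Pphln1, at −0.25 and −0.072. In the fourth, Smc1b and Ribc2, both genes were too low to test.

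**Figure D2:**
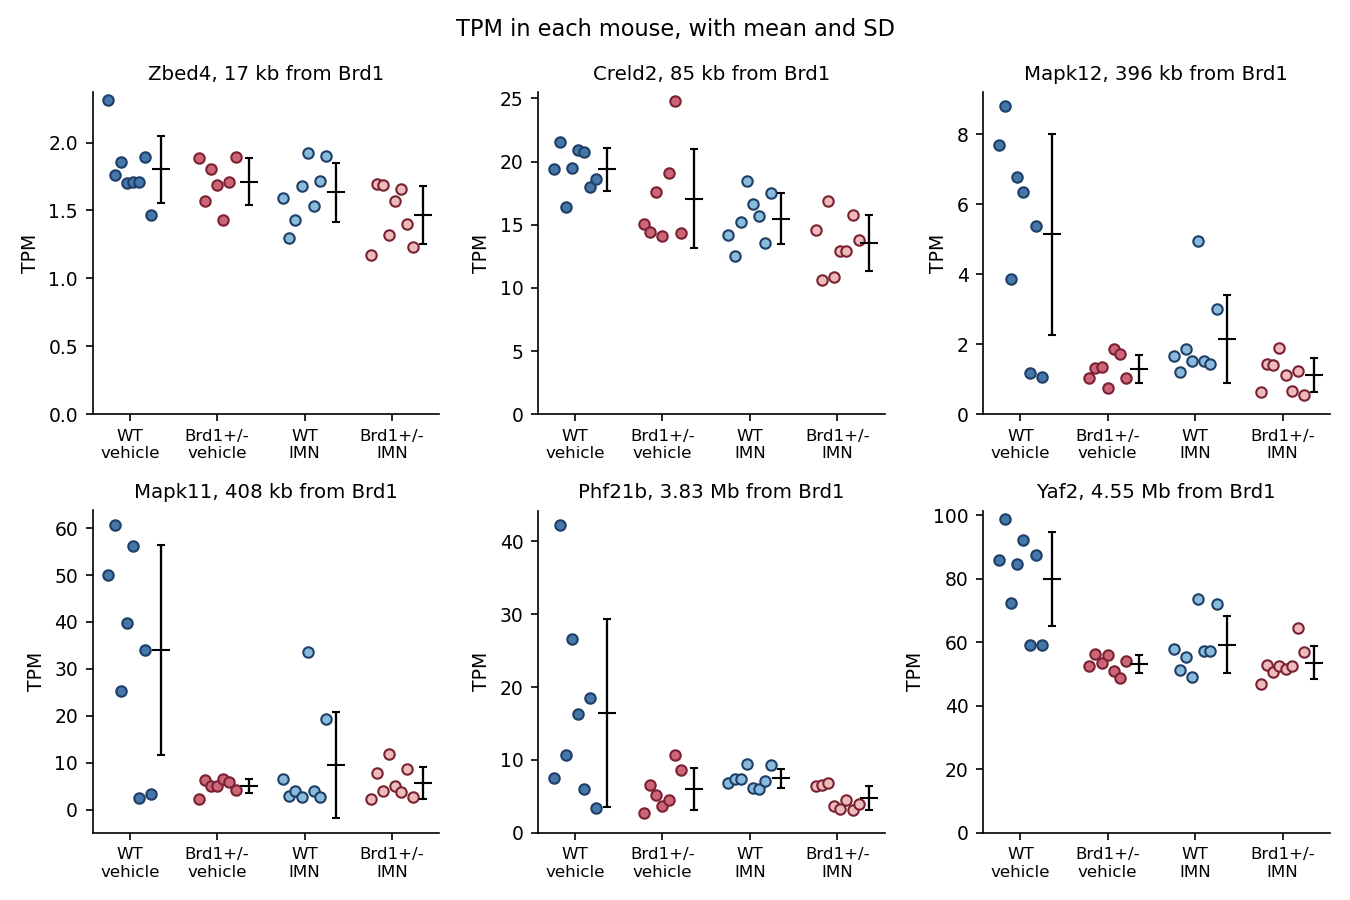
TPM of 6 members in each of the 31 mice by group (points), with the mean and SD beside them (bars). Mapk12 and Mapk11 show 6 high and 2 low WT vehicle mice, Phf21b is lower in Brd1+/- than in WT mice under IMN, and the neighbours Zbed4 and Creld2 overlap between genotypes.

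Genes of the synapse, axon, adhesion and neuronal membrane were changed in part. Of 14 listed and tested, 5 fell and none rose under vehicle, with a median of −0.37. Prickle1, a planar cell polarity gene near the far end of the window (4.76 Mb, chr15:93499114-93595891), had 12.2 to 57.7 TPM (median 41.2) in WT vehicle mice and 11.5 to 17.6 TPM (median 14.1) in Brd1+/- vehicle mice. The WT mice 1 to 5 and 7 exceeded every mutant, and the log2 fold change was −1.16 ± 0.29 (SE, adjusted p = 0.0556). Sult4a1, a sulfotransferase of neurons at the opposite end (4.58 Mb, chr15:84076097-84105754), had 135 to 371 TPM (median 260.2) in WT vehicle mice and 129 to 164 TPM (median 138) in Brd1+/- vehicle mice, a change of −0.71 ± 0.18 (SE, adjusted p = 0.0556). Panx2, a pannexin channel subunit (326 kb), was at −0.53 (adjusted p = 0.0663), Pdzrn4, a PDZ and RING finger protein (3.66 Mb), at −0.74 (adjusted p = 0.0667), and Kif21a, a kinesin (2.20 Mb), at −0.45 (adjusted p = 0.0733). These 3 calls were lost in most fits without 1 mouse. Shank3, the postsynaptic scaffold (765 kb), had 40.4 to 165 TPM (median 109.7) in WT vehicle mice and 129 to 171 TPM (median 146) in Brd1+/- vehicle mice, with WT mice 1, 2, 4 and 5 below every mutant. Its change of 0.63 ± 0.25 (SE, adjusted p = 0.105) did not pass p under 0.01. Fam19a5, a secreted brain protein (928 kb), was at 0.17 (adjusted p = 0.327). The other 7 of the list lay between −0.62 and 0.32.

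Mitochondrial and lipid genes were listed 12 times and tested 10 times, and 2 fell under vehicle, near the 15.7% of all protein-coding genes that did. All 10 had a negative value, as 75.3% of protein-coding genes did, with a median of −0.34. Sco2, an assembly factor of cytochrome c oxidase (637 kb), had 3.08 to 8.59 TPM (median 5.66) in WT vehicle mice and 2.03 to 4.97 TPM (median 3.53) in Brd1+/- vehicle mice and a log2 fold change of −0.61 ± 0.17 (SE, adjusted p = 0.0556). It overlaps Tymp on its own strand and Ncaph2 on the other, so shared reads cannot be told apart from those of Tymp, nor without strand from those of Ncaph2. In all, 15 members overlap another gene on the same strand and 25 on the opposite strand, and the strand setting of the counting is not given in the sources used here. Pnpla3, a lipase of lipid droplets (4.50 Mb), had 1.32 to 10.2 TPM (median 5.10) in WT vehicle mice and 1.52 to 2.61 TPM (median 1.90) in Brd1+/- vehicle mice and a change of −0.89 ± 0.29 (SE, adjusted p = 0.0664), with WT mice 6 and 8 below every mutant. That call was kept in 3 of the 15 fits with 1 mouse left out. The most abundant of the list, Samm50 of the mitochondrial outer membrane, Chkb, a choline kinase, and Arsa, the lysosomal arylsulfatase A, were at −0.28 (adjusted p = 0.0736), −0.35 (adjusted p = 0.173) and −0.37 (adjusted p = 0.0908).

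Of the genes of the nucleus, chromatin and RNA, 10 were listed, 7 tested, and 1 fell. Yaf2, a partner of the RING1 and YY1 proteins in Polycomb complexes (4.55 Mb, chr15:93284278-93336935), had 59.1 to 99.0 TPM (median 85.3) in WT vehicle mice and 48.7 to 56.2 TPM (median 53.5) in Brd1+/- vehicle mice. It was the only member whose values did not overlap between the genotypes, where 0.289% of all genes tested did not. The log2 fold change was −0.56 ± 0.11 (SE, adjusted p = 0.0556), the lowest p of the members under vehicle. Phf21b, a PHD finger gene (3.83 Mb, chr15:84785381-84856049), had 3.44 to 42.3 TPM (median 13.5) in WT vehicle mice and 2.73 to 10.7 TPM (median 5.13) in Brd1+/- vehicle mice and a change of −1.07 ± 0.42 (SE, adjusted p = 0.102), which did not pass. Ncaph2 and Zcrb1, a protein of the minor spliceosome, were at −0.31 (adjusted p = 0.0931) and −0.25 (adjusted p = 0.174). None of the 5 tested genes of the endoplasmic reticulum and glycosylation and none of the 5 tested genes of the cytoskeleton and centrosome was called in either treatment. Their medians under vehicle were −0.20 and −0.24. The most abundant of them were Creld2 (above), Lmf2 at −0.41 (adjusted p = 0.141) and the glucosyltransferase Alg10b at 0.065 (adjusted p = 0.845) in the first, and Tubgcp6 of the gamma-tubulin ring at −0.25 (adjusted p = 0.107) and the parvins Parvb at −0.22 (adjusted p = 0.412) and Parvg at 0.071 (adjusted p = 0.799) in the second.

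Members on no list made up the rest of the calls. Gramd4, a GRAM domain protein (2.55 Mb), had 14.3 to 21.4 TPM (median 19.2) in WT vehicle mice and 10.9 to 16.5 TPM (median 13.9) in Brd1+/- vehicle mice and a log2 fold change of −0.39 ± 0.11 (SE, adjusted p = 0.0556). Efcab6, an EF-hand protein (4.62 Mb), had 0 to 5.80 TPM (median 2.41) in WT vehicle mice and 0 to 0.645 TPM (median 0.184) in Brd1+/- vehicle mice and −1.23 ± 0.35 (SE, adjusted p = 0.0556). The call of Efcab6 was lost with a pseudocount of 0.1, under vehicle and over both treatments. Rabl2, a small GTPase of cilia, was at −0.69 (adjusted p = 0.0587), 5031439G07Rik at −0.58 (adjusted p = 0.0614) and Atxn10, the ataxin-10 gene, at −0.29 (adjusted p = 0.0733). The remaining 2 were near the detection limit, as Pkdrej, a sperm receptor gene, had a mean of 0.362 ± 0.198 TPM (SD, n = 8) in WT vehicle mice and CN725425 0.0957 ± 0.113 TPM (SD, n = 8). Their log2 fold changes were −0.25 (adjusted p = 0.0733) and 0.26 (adjusted p = 0.0556). The calls of Atxn10 and Pkdrej were each kept in 2 of the 15 fits with 1 mouse left out. Of the 86 genes, 13 did not pass the filter. Among them, 8 were listed at 0 TPM in every mouse (Pnpla5, Upk3a, 7530416G11Rik, Zdhhc25, Adm2, Miox, Syce3 and Smgc), and Arhgap8, Smc1b, Ribc2, Mov10l1 and Cpt1b reached at most 0.315 TPM in any mouse.

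The order of the effects by distance from Brd1 changed with the fit. With a gap of at most 0.5 Mb, 3 of 15 members tested were called under vehicle (Mapk12, Mapk11 and Panx2), with a median log2 fold change of −0.28, where 13.6% of all genes and 17.3% of protein-coding genes were called. From 0.5 to 1.5 Mb it was 3 of 17, with a median of −0.34, and from 1.5 to 5 Mb it was 14 of 41, with a median of −0.25. Lower under vehicle, called or not, were 15 of 15, 12 of 17 and 35 of 41, where 75.3% of protein-coding genes were. After median-of-ratios scaling these counts were 13, 11 and 27. Under IMN, without that scaling, they were 11, 8 and 29, where 67.1% of protein-coding genes were lower. All 15 of the nearest members were on the telomere side, since the first gene tested on the centromere side, Fam19a5, lies 928 kb away. In the farthest bin, 8 of 28 were called on the centromere side and 6 of 13 on the telomere side. Spearman's rho of the size of the log2 fold change with the gap was 0.056 under vehicle and 0.161 under IMN, over 73 genes that share the same mice. Within the centromere side alone it was 0.308 and 0.512 (29 genes), and within the telomere side 0.070 and 0.084 (44 genes). The jackknife SE over mice was 0.097 under vehicle and 0.266 under IMN, above both of the values over 73 genes, so their sign was not resolved. After median-of-ratios scaling the values under vehicle were 0.096 over both sides, 0.210 on the centromere side and 0.295 on the telomere side, and those under IMN −0.0073, 0.419 and −0.061. With the cortical score in the fit under vehicle, the nearest bin had the highest share called (2 of 15, then 0 of 17 and 3 of 41, where 2.44% of all genes were called), a rank that rests on 2 genes, and a median of −0.16, beside −0.15 and −0.12. Under IMN the medians of the 3 bins were −0.059, 0.0073 and −0.048, with 0, 0 and 1 members called.

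The windows of the same length on either side had like shares of genotype calls, but lower shares in the interaction. Under vehicle 53 of 193 genes were called in the 10 Mb before the window (27.5%) and 32 of 127 in the 10 Mb after it (25.2%), beside 27.4% of the members. Their median log2 fold changes were −0.24 and −0.18. Under IMN 1 of 196 and 0 of 127 genes were called there (3 of the latter had an unadjusted p under 0.05), and over both treatments 39 of 201 and 23 of 136, beside 15 of the 73 members. In the interaction 10 of 201 (4.98%) and 7 of 136 (5.15%) were called there. This stands beside 7 of the 73 members (9.59%) and 4.75% of protein-coding genes.

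**Figure D3:**
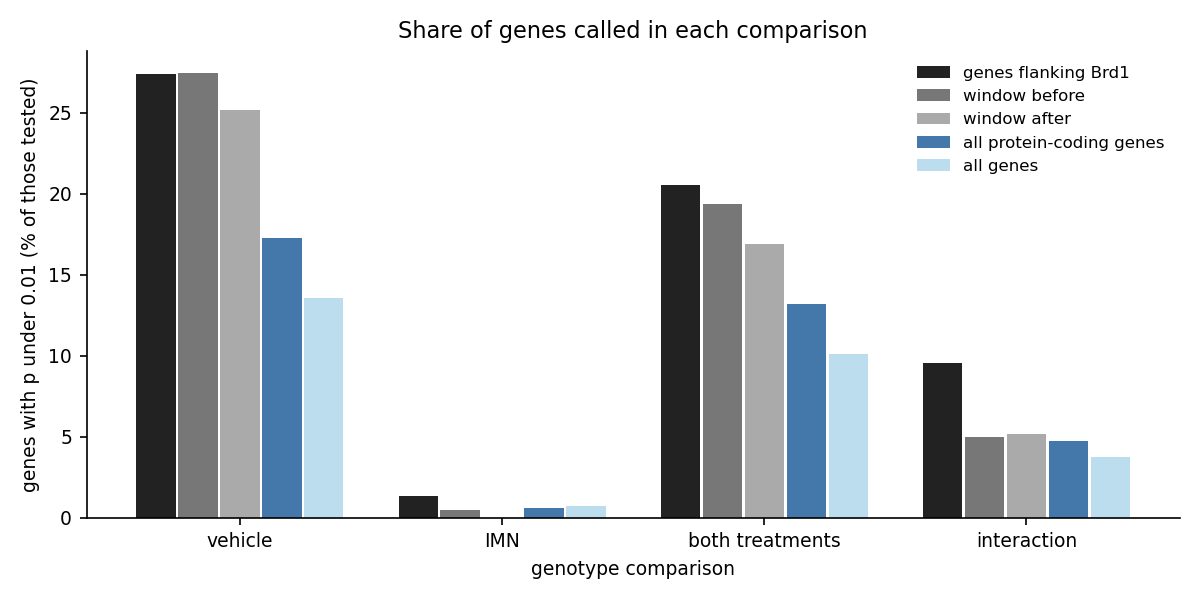
Share of genes with p under 0.01 (limma, % of those tested) among the genes flanking Brd1, in the windows before and after, among all protein-coding genes and among all genes, for each genotype comparison. Under vehicle the members (27.4%) lie beside the neighbouring windows (27.5% and 25.2%) and above all genes (13.6%).

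Under IMN the flanking genes differed little between the genotypes. Of 73 members tested, 1 was called at p under 0.01, where 0.703% of all genes and 0.584% of protein-coding genes were (0.514% and 0.49% lower). No member passed an FDR of 5%, as 0.00428% of all genes did. No member's values were apart between the genotypes, where those of 0.0129% of all genes were. The median log2 fold change was −0.043, beside −0.033 over all genes. Of the 73 members, 48 were lower (65.8%), beside 63.3% of all genes and 67.1% of protein-coding genes. The member called was Phf21b, which had 6.02 to 9.501 TPM (median 7.24) in WT IMN mice and 3.07 to 6.87 TPM (median 4.23) in Brd1+/- IMN mice. Brd1+/- IMN mice 4 to 8 lay below every WT IMN mouse and WT IMN mice 2, 3, 4, 7 and 8 above every mutant. Its log2 fold change was −0.58 ± 0.15 (SE, adjusted p = 0.998), and it was called in each of the 16 fits with 1 mouse left out. It was not called with all 4 groups in one fit. Mapk12 had 1.22 to 4.95 TPM (median 1.60) in WT IMN mice and 0.537 to 1.91 TPM (median 1.18) in Brd1+/- IMN mice, where WT IMN mice 5 and 8 lay above every mutant. Its log2 fold change of −0.53 ± 0.19 (SE, adjusted p = 0.998) did not pass p under 0.01. Mapk12 and Phf21b were the 2 members with an unadjusted p under 0.05 under both treatments. Of the 20 members called under vehicle, 16 had the same sign under IMN, with median log2 fold changes of −0.59 under vehicle and −0.072 under IMN. Mapk11, the largest under vehicle, had 2.80 to 33.7 TPM (median 3.96) in WT IMN mice and 2.25 to 11.8 TPM (median 4.48) in Brd1+/- IMN mice, and the high values were again WT IMN mice 5 and 8. Its change was −0.24 (adjusted p = 0.998). No other member had an unadjusted p under 0.05 under IMN. The count was 2, with Mapk12 added, without WT IMN mouse 2 or Brd1+/- IMN mouse 4.

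Over both treatments together, with treatment as a term, 15 of 73 members were called, 14 lower and 1 higher, where 10.1% of all genes and 13.2% of protein-coding genes were called (9.33% and 12.5% lower). No member passed an FDR of 5%, as 0.00394% of all genes did, and 31 members had an unadjusted p under 0.05 (42.5%, beside 24.9% of all and 31.3% of protein-coding genes). Mapk12 led with −0.87 ± 0.20 (SE, adjusted p = 0.0707), followed by Yaf2 with −0.34 ± 0.078 (SE, adjusted p = 0.0707) and Phf21b with −0.82 ± 0.23 (SE, adjusted p = 0.071). The others were Sult4a1 at −0.40 (adjusted p = 0.071), CN725425 at 0.19 (adjusted p = 0.0753), Prickle1 at −0.65 (adjusted p = 0.077), Mapk8ip2, Cerk, Efcab6, Pnpla3, Pkdrej, Ppp6r2, Wnt7b, Samm50 and Kif21a. The count ran from 8 to 20 with 1 mouse left out, and it was 10 or fewer without WT vehicle mouse 1, 2, 5 or 7 or Brd1+/- vehicle mouse 1, 2 or 5 (9 each), WT IMN mouse 5 (8) and WT vehicle mouse 4 or WT IMN mouse 8 (10). The share of all genes called ran from 7.16% to 14.5% in these fits. Mapk12, Yaf2, Phf21b, Sult4a1, CN725425, Prickle1, Mapk8ip2 and Cerk were called in all 31 such fits. Among these, Mapk8ip2 and Cerk were not called with median-of-ratios or quantile scaling or with the cortical score. With the striatal score only Mapk12 and Yaf2 were called. Without WT vehicle mice 2 and 7 together 6 were called, where 5.44% of all genes were. At an FDR of 5%, 14 members passed without WT vehicle mouse 6 (7.82% of all genes), 18 without WT vehicle mouse 8 (10.5%), 4 without WT IMN mouse 2 (4.07%), 3 without Brd1+/- IMN mouse 3 (2.12%) and 1 without WT IMN mouse 4 (0.134%).

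The genotype effect differed between the treatments in 7 of 73 members at p under 0.01, where 3.74% of all genes and 4.75% of protein-coding genes did (0.78% and 0.926% with a negative difference). None passed an FDR of 5%, as 0% of all genes did, and 25 members had an unadjusted p under 0.05 (34.2%, beside 16.2% of all and 20.3% of protein-coding genes). The difference (effect under IMN minus effect under vehicle) was positive in 6 of them. It was 0.59 ± 0.19 (SE, adjusted p = 0.261) for Sbf1, 0.42 ± 0.14 (SE, adjusted p = 0.261) for Yaf2, 0.57 (adjusted p = 0.261) for Cerk, 0.64 (adjusted p = 0.261) for 5031439G07Rik, 0.82 (adjusted p = 0.261) for Pdzrn4 and 0.58 (adjusted p = 0.261) for Sult4a1. Only Lrrk2 had a negative one, −0.88 ± 0.27 (SE, adjusted p = 0.261), from 0.74 under vehicle to −0.14 under IMN. For Mapk12 the difference was 0.71 (adjusted p = 0.345) and for Phf21b 0.49 (adjusted p = 0.6), neither of which passed. Yaf2 had a mean of 80.0 ± 14.9 TPM in WT vehicle (SD, n = 8), 53.2 ± 2.73 TPM in Brd1+/- vehicle (SD, n = 7), 59.3 ± 8.98 TPM in WT IMN (SD, n = 8) and 53.6 ± 5.23 TPM in Brd1+/- IMN mice (SD, n = 8). In the same order Lrrk2 had means of 45.3 ± 20.6 TPM, 69.7 ± 4.53 TPM, 62.0 ± 9.54 TPM and 56.3 ± 7.53 TPM, and Sbf1 of 84.5 ± 24.8 TPM, 60.9 ± 11.5 TPM, 60.8 ± 7.76 TPM and 67.1 ± 6.77 TPM. The count of 7 was 21 without WT vehicle mouse 8, 18 without WT vehicle mouse 6, 12 without WT IMN mouse 5, 4 without WT vehicle mouse 7, Brd1+/- vehicle mouse 3 or 4, WT IMN mouse 3 or Brd1+/- IMN mouse 4, 3 without WT vehicle mouse 1 or 5, Brd1+/- vehicle mouse 1, WT IMN mouse 6 or Brd1+/- IMN mouse 2, and 2 without WT vehicle mice 2 and 7 together, where 1.62% of all genes were called. The share of all genes called with 1 mouse left out ran from 2.16% to 10.2%, the latter without WT vehicle mouse 8. Yaf2, Lrrk2 and Sbf1 were called whichever single mouse was left out, and Sult4a1 in 9 of the 31 fits. With median-of-ratios or quantile scaling Lrrk2, Pdzrn4 and Sbf1 were called and Yaf2, Sult4a1, Cerk and 5031439G07Rik were not.

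The levels of many members moved with the cortical marker score across mice. The 8 mice with the highest score (4.92 and above, the next being 4.26) were also the 8 with the highest TPM in 14 of the 73 members, Mapk12, Mapk11, Prickle1, Yaf2, Sult4a1, Cerk and Mapk8ip2 among them. This is 19.2% of the members, beside 5.13% of all 22656 genes that passed the filter under both treatments and 7.12% of protein-coding genes. They held 6 or more of the 8 highest values in 35 members (47.9%, beside 22.8% of all and 29.9% of protein-coding genes). They held 6 of the 8 lowest in Lrrk2 (1.37% of members), where 2.83% of all genes had 6 or more there. For Mapk11 the 8 mice had at least 19.4 TPM and the other 23 mice, the mutants included, at most 11.8 TPM. For Mapk12 these limits were 3.02 and 1.91 TPM. Phf21b had 6 of its 8 highest values in these mice.

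**Figure D4:**
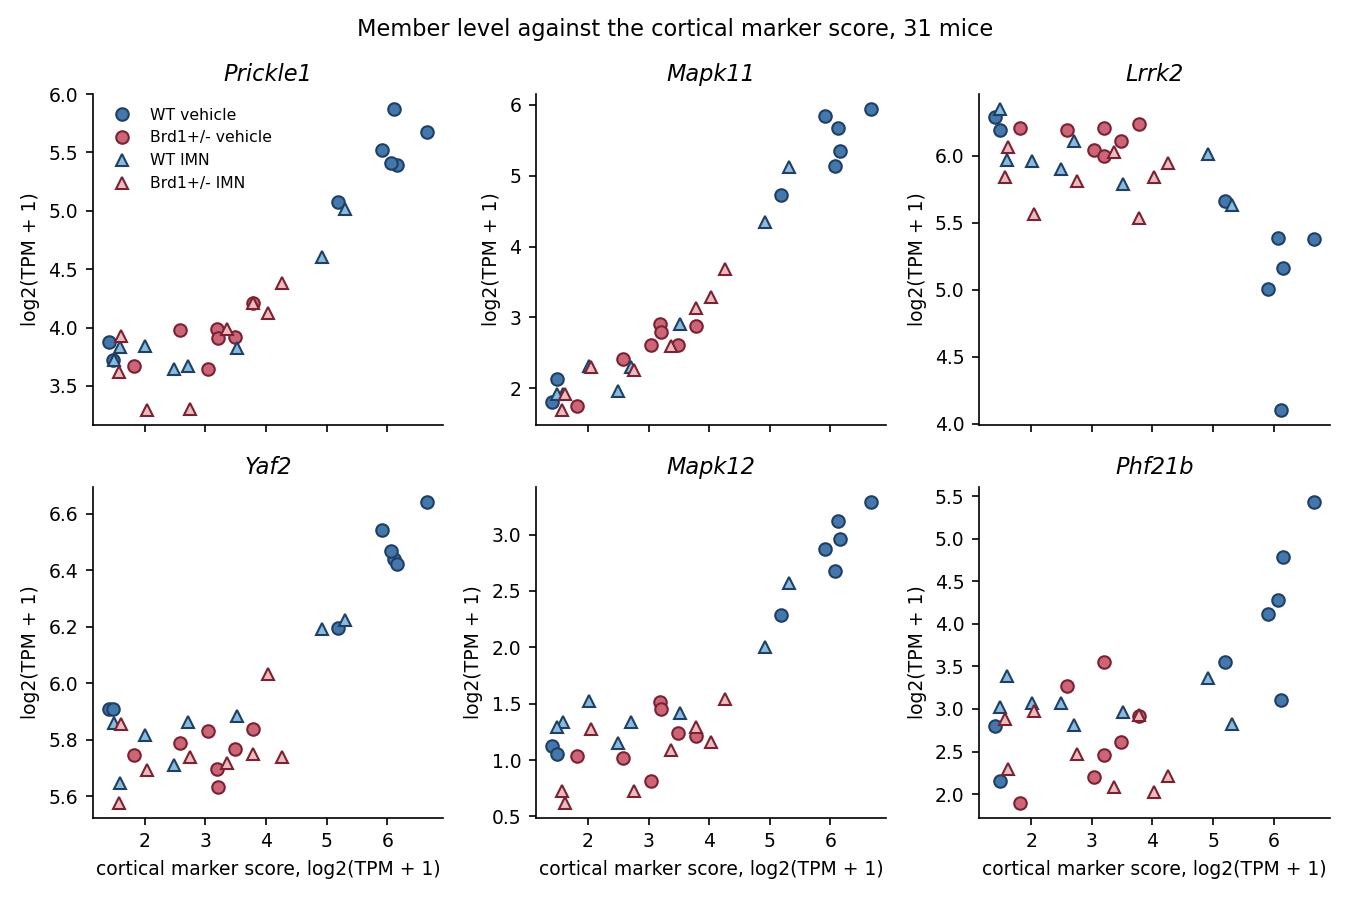
Log2(TPM + 1) of 6 members against the cortical marker score, the mean log2(TPM + 1) of 10 genes, in 31 mice by group (circles vehicle, triangles IMN). The 8 mice scoring 4.92 or more, all WT, have the 8 highest levels of Prickle1, Mapk11, Yaf2 and Mapk12, and Phf21b has 6 of its 8 highest there.

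With the cortical score as a covariate in the fit, 5 of the 20 members called under vehicle stayed called, where 2.44% of all genes were called. They were Yaf2 at −0.34 ± 0.068 (SE, adjusted p = 0.157), Prickle1 at −0.50 (adjusted p = 0.197), Mapk11 at −0.62 (adjusted p = 0.226), Mapk12 at −0.53 (adjusted p = 0.288) and Sult4a1 at −0.32 (adjusted p = 0.379), each a smaller change than without the score. Lrrk2 was at 0.31 (adjusted p = 0.663). With the striatal score in its place Yaf2 alone was called, at −0.37 (adjusted p = 0.58), where 1.29% of all genes were. Members that lost the call there had log2 fold changes of −1.004 ± 0.53 (SE, adjusted p = 0.587) for Mapk11, −0.71 ± 0.29 (SE, adjusted p = 0.58) for Pdzrn4, −0.67 ± 0.26 (SE, adjusted p = 0.58) for Prickle1, −0.66 ± 0.27 (SE, adjusted p = 0.58) for Mapk12 and −0.32 ± 0.12 (SE, adjusted p = 0.58) for Gramd4. Under IMN, with either score, 2 members were called, where 0.844% of all genes were with the cortical and 1% with the striatal score. They were Phf21b and Mapk12, which had −0.51 (adjusted p = 0.844) with the cortical and −0.51 (adjusted p = 0.47) with the striatal score. Mapk12 with the cortical score thus had −0.53 under vehicle and −0.51 under IMN. Over both treatments it was −0.55 ± 0.094 (SE, adjusted p = 0.0162), the only member under an FDR of 5% in that fit (0.0118% of all genes), in which 7 members and 4.17% of all genes were called, while with the striatal score, where 2 members and 2.16% of all genes were called, it was −0.56 ± 0.15 (SE, adjusted p = 0.417). Brd1 kept its change, at −0.60 (adjusted p = 0.154) under vehicle and −0.60 (adjusted p = 0.0576) under IMN with the cortical score. No member of the 7 kept an interaction at p under 0.01 with either score, where 1.04% and 0.508% of all genes were called. The difference was then −0.59 ± 0.22 (SE, adjusted p = 0.838) with the cortical and −0.54 ± 0.25 (SE, adjusted p = 0.999) with the striatal score for Lrrk2, 0.52 (adjusted p = 0.838) and 0.75 (adjusted p = 0.999) for Pdzrn4, and 0.40 (adjusted p = 0.838) and 0.36 (adjusted p = 0.999) for Sbf1. Hdac10, between Brd1 and Mapk12, is no member, and had log2 fold changes of −0.94 (adjusted p = 0.0556) under vehicle and −0.00098 (adjusted p = 1) under IMN. Under vehicle Hdac10 was at −0.58 (adjusted p = 0.297) with the cortical and −0.64 (adjusted p = 0.58) with the striatal score, called in both fits.

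**Figure D5:**
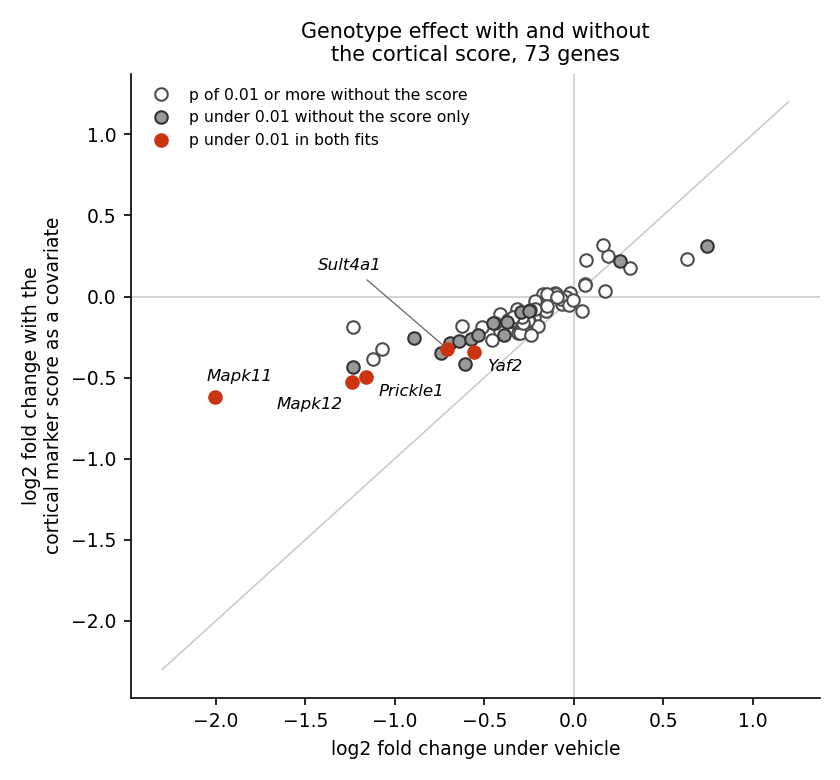
Log2 fold change under vehicle of 73 members with the cortical marker score as a covariate (vertical axis) against that without it (horizontal axis), with the line of equal values. The 5 members with p under 0.01 in both fits (red) are labelled, and most points lie nearer to 0 with the score.

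With sample quality weights 40 members were called under vehicle beside 26.5% of all genes, 1 under IMN beside 0.985%, 15 over both treatments beside 10.6%, and 27 in the interaction beside 13.6%. With mouse number as a block the counts were 28 beside 17.7% of all genes, 1 beside 0.673%, 15 beside 9.76% and 16 beside 8.02%. With all 4 groups in one fit, 34 members were called under vehicle beside 19.7% of all genes, and 0 under IMN beside 0.512%. Median-of-ratios scaling gave 1 member under IMN beside 0.673% of all genes, 10 over both treatments beside 5.64% and 3 in the interaction beside 3.17%. Quantile normalization gave 12 members under vehicle beside 9.53% of all genes, 2 under IMN beside 0.681%, 10 over both treatments beside 5.75% and 3 in the interaction beside 3.39%.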

How the data were processed

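The deposited table gives TPM (length-normalised transcript abundance, scaled to a fixed total) for each gene and mouse. According to the study's methods and processing notes, the authors trimmed and filtered the reads, aligned them to GRCm38 with HISAT2 2.1.0 and quantified them with StringTie 1.3.4. TPM keeps no read depth, so counting error is unknown and no count test was used, although the study's own test was made for counts. The sources do not state whether mice of a group were processed together.

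Members were the protein-coding genes of the stated window. The members and lists were chosen with earlier results of these data known. Genes with TPM above 0.1 in at least 7 of the mice fitted were tested on log2(TPM + 1) with limma 3.58.1 (R 4.3.3, two-sided, empirical Bayes with trend), and p was adjusted by Benjamini-Hochberg over all genes tested. A call is an unadjusted p under 0.01, and an FDR of 5% is given beside it. Fits held the vehicle mice, the IMN mice, or all mice with treatment, alone or with an interaction. The script was tested on simulated data. Brd1 was also tested by exact permutation (scipy 1.17.1). Fold changes are on the log2(TPM + 1) scale, which understates those of low genes. Distances are gaps between gene bodies.

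Named were members within 0.2 Mb of Brd1, up to 12 of lowest p in each fit, those called under both treatments, and the 3 of highest mean TPM in each of 6 role lists. The other members called, the untested ones, Wnt7b, Samm50 and the divergent pairs were named after their values were seen. Alternatives were another pseudocount, filter, scaling, variance prior, sample weights, a replicate block, marker score covariates, a joint fit of the 4 groups, and leaving out single mice. Leaving out WT vehicle mice 2 and 7 together was chosen after seeing the data.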

Additional observations from a re-analysis of the deposited data

Results flagged for a closer look

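The highest or lowest mouse stood apart from the other mice of its group in 8 of 152 groups of values of the members named, where chance gives about 1 in 20, or 7.6. WT IMN mouse 5 was high for Parvg (2.85 TPM), 5031439G07Rik (60.9 TPM) and Rabl2 (38.3 TPM), WT vehicle mouse 1 for Parvg (4.06 TPM) and Pim3 (42.5 TPM), and Brd1+/- IMN mouse 3 for Efcab6 (1.23 TPM) and Pdzrn4 (3.26 TPM). Brd1+/- IMN mouse 1 was low for Ncaph2 (30.7 TPM).

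The genotype effect differed between the treatments at an unadjusted p under 0.01 (limma interaction term) in 7 members. The effect under IMN minus that under vehicle was 0.58 for Sult4a1, 0.42 for Yaf2, 0.57 for Cerk, 0.64 for 5031439G07Rik, 0.82 for Pdzrn4, 0.59 for Sbf1 and −0.88 for Lrrk2 on the log2 scale. Yaf2, Lrrk2 and Sbf1 were called whichever single mouse was left out. None passed an FDR of 5%, and with the cortical or the striatal marker score as a covariate none was called. With the striatal score the difference was 0.75 for Pdzrn4, −0.54 for Lrrk2 and 0.36 for Sbf1, and with the cortical score 0.52, −0.59 and 0.40.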

How the results depend on the processing

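The count of members called under vehicle, 20, was 10 with median-of-ratios scaling (9.22% of all genes called), 12 with quantile normalization (9.53%), 40 with sample quality weights (26.5%), 34 with all 4 groups in one fit (19.7%), 5 with the cortical (2.44%) and 1 with the striatal score (1.29%), and 7 without WT vehicle mice 2 and 7 (5.83%). In the same order the window before, with 53, had 30, 25, 89, 84, 9, 2 and 24, and the window after, with 32, had 21, 21, 56, 48, 5, 2 and 10. Spearman's rho with the gap under vehicle was 0.187 with the striatal score. Under IMN the count of 1 became 2 with quantile normalization or either score and 0 with all 4 groups. There the window before had 2 called with no filter or with weights, and the window after 2 with no filter and 1 with no variance trend. Over both treatments 15 became 7 with the cortical score, 2 with the striatal score and 6 without the 2 mice. The interaction count of 7 became 3 with either scaling, 27 with weights, 0 with either score and 2 without the 2 mice. At an FDR of 5%, where 0 members passed under vehicle, 11 passed with a mean TPM of at least 1 (10.5% of all genes), 43 with weights (29.5%), 25 with the block (15.4%) and 34 with all 4 groups (19.5%). With weights 3 passed over both treatments (1.65%) and 24 in the interaction (10.3%). The cause of these shifts was not tested.

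Without 1 mouse the counts of members ran from 12 to 34 under vehicle, 1 to 2 under IMN, 8 to 20 over both treatments and 3 to 21 in the interaction. The windows ran from 32 to 77 before and 18 to 53 after under vehicle, and from 1 to 3 and 0 to 1 under IMN. The log2 fold change of Brd1 ran from −0.75 to −0.67 under vehicle, −0.66 to −0.57 under IMN and −0.68 to −0.63 over both. No result named here changed sign after being called. The values of named members kept their side of the threshold in 4573 cases, lost it in 301 and passed it in 113, and changed sign without a call in either fit in 104. The median of the members moved by over its jackknife SE in 9 cases and by less in 129.

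Mouse numbers showed no pairing in the levels of the genes tested. Deviations of mice of the same number correlated from −0.189 to 0.191, and 0 of 7 and 0 of 8 mutant mice correlated best with their own number. These deviations also hold the spread in cortical score within a group, so this check cannot decide whether mice were paired by litter. With the replicate block 28 members were called under vehicle, 1 under IMN, 15 over both treatments and 16 in the interaction.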
